A study of Mus musculus with 6 samples.

Results

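The mitochondrial carriers of the SLC25 family, with the uncoupling proteins Ucp2 and Ucp3, were followed in interscapular brown fat of mice held in the cold. The set was taken from the GENCODE M21 annotation as every protein-coding gene whose symbol begins with Slc25a, together with Ucp2 and Ucp3. The citrate, oxoglutarate, aspartate-glutamate, peroxisomal, carnitine-acylcarnitine and branched-chain amino acid carriers (Slc25a1, Slc25a11, Slc25a12, Slc25a13, Slc25a17, Slc25a20 and Slc25a44) were not members. This gave 42 genes, 25 of which had reads, out of 8129 genes with reads in all. The cold group was 3 male wild-type C57BL/6N mice aged 20 weeks that were housed alone at 4 °C for 24 h, named here by mouse number as cold 4, 11 and 15. The control group was 3 male mice of the same strain and age, control 2, 9 and 14, for which the labels give general husbandry at 22 to 24 °C. The text on cold housing stands on all 6 records, and group membership follows the titles. Whether the control mice were housed alone is not stated, so single housing and cold cannot be told apart. Each library is 1 mouse. Capped, full-length poly(A) RNA was turned into cDNA and read by nanopore sequencing, so that 1 read stands for 1 amplified cDNA molecule.

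Carriers of this family sit in the inner mitochondrial membrane, and exchange nucleotides, phosphate, amino acids, cofactors and organic acids between cytosol and matrix. In brown fat they feed the heat-producing mitochondrion. Ucp1, the uncoupling protein of heat production, belongs to the same family. The adenine nucleotide translocases, another branch, bring ADP in and send ATP out.

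The cold libraries held 2923005 to 2982713 reads and the control libraries 1014847 to 1849431, so that every cold library was deeper than every control library. Levels are given as CPM, counts-per-million values on library sizes scaled by the trimmed mean of M-values, and changes as log2 cold minus control ± SE. A gene was called at a Benjamini-Hochberg adjusted p under 0.05 in edgeR's quasi-likelihood test over all 2093 tested genes. All 10 listed brown adipocyte markers had reads, and their summed level was 14922 to 15785 CPM in cold and 15903 to 21214 CPM in control libraries. Of these, Prdm16 had 1 read, Dio2 4 and Ppargc1a 10. Skeletal muscle markers stood apart. Of 15 listed markers 13 had reads, with Myh2 and Ttn at 0, and their sum was 260, 3362 and 15814 CPM in cold 4, 11 and 15, against 199.6, 698 and 1139 CPM in control 2, 9 and 14. The sum of the erythroid list was 16327 to 22521 CPM in cold and 14978 to 28132 CPM in control libraries. White adipocyte markers summed to 166 to 256 CPM in cold and 66.5 to 119 CPM in control libraries. Of the 7 listed 4 had reads, and Retn made up most of each sum. Retn alone stood at 150 to 253 CPM in cold and 66.0 to 117 CPM in control libraries. Macrophage markers summed to 55.3 to 124 CPM in cold and 57.6 to 90.4 CPM in control libraries. Endothelial markers summed to 24.5 to 31.2 CPM and 20.0 to 37.0 CPM, and fibroblast markers to 11.1 to 22.1 CPM and 7.19 to 17.8 CPM. Results that move with the muscle markers are given with and without the libraries concerned.

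Of the 42 carriers 12 passed the filter on low counts, and they held 99.4% of all carrier reads. Among all tested genes 33.2% were called, 18.1% higher and 15.1% lower in cold, and of the 12 carriers 6 were higher, 2 lower and 4 not called. Slc25a34 and Slc25a42 passed the filter through the cold libraries alone, and so had to differ. Among the other 10 carriers 4 were called higher and 2 lower, with a median log2 change of 0.36, beside 0.04 over all tested genes. The summed carrier level was 2115, 2193 and 2164 CPM in cold 4, 11 and 15, against 2115, 1945 and 2165 CPM in control 2, 9 and 14. The total thus overlapped between the groups while its makeup shifted. The glutathione carrier Slc25a39 held 51.7% of carrier reads in cold and 29.5% in control libraries. Less RNA per cell and fewer cells of a type cannot be told apart in such bulk samples.

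**Figure D1:**
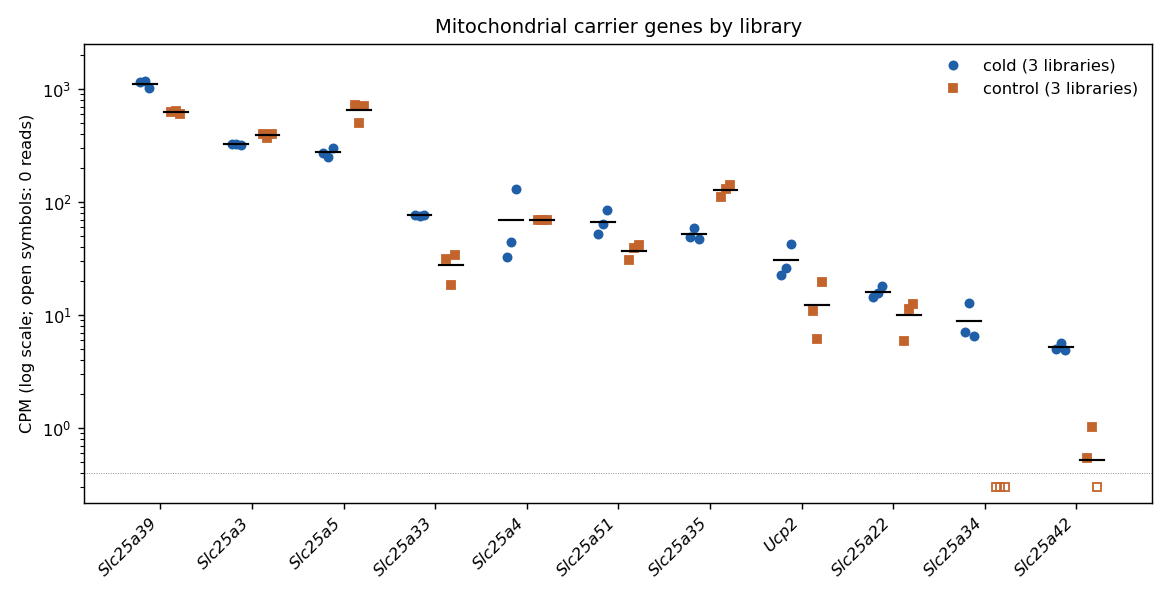
Level of 11 tested carrier genes in CPM (log axis) in the 3 cold libraries (circles) and the 3 control libraries (squares), with the group mean as a bar and libraries without reads as open symbols under the dotted line. Slc25a39 lies highest in cold at 1015 to 1178 CPM, above its control libraries at 604 to 638 CPM, while Slc25a5 and Slc25a35 lie lower in cold than in control.

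Levels of different genes were compared per kilobase of the annotated length of the transcripts counted. On that scale Slc25a39 led in cold at 693 ± 54.8 CPM per kb (SD, n = 3), followed by the adenine nucleotide translocase gene Slc25a5 at 222 ± 21.4 and the phosphate carrier gene Slc25a3 at 206 ± 3.59 CPM per kb, which did not differ beyond their spread. In control libraries the order was Slc25a5 at 522 ± 100, Slc25a39 at 385 ± 10.4 and Slc25a3 at 250.1 ± 10.2 CPM per kb. The lowest tested carriers in cold were Ucp2 at 7.65 ± 2.64, Slc25a22 at 5.67 ± 0.801, Slc25a34 at 3.31 ± 1.32 and Slc25a42 at 1.57 ± 0.0845 CPM per kb.

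Of the 8 listed carriers of adenine nucleotides and phosphate, 3 were tested. Of these, 1 was called lower and 2 were not called, beside 33.2% called among all tested genes. The 8 listed members summed to 670 ± 74.6 CPM in cold and 1109 ± 141 CPM in control libraries (SD, n = 3 each), and 4 of them had reads. Slc25a5 alone held 275 ± 26.3 CPM of that sum in cold and 646 ± 124 CPM in control libraries. Slc25a5, adenine nucleotide translocase 2 (ENSMUSG00000016319, GRCm38 chromosome X from 36795651 to 36798807), stood at 273, 250.2 and 303 CPM in cold 4, 11 and 15, against 728, 504 and 707 CPM in control 2, 9 and 14. Every cold library lay under every control library, a separation found in 47.8% of all tested genes. The change was -1.23 ± 0.20 (95% interval -1.67 to -0.79, edgeR adjusted p = 0.00098). Without both cold 11 and 15, the cold libraries with the most muscle marker reads, the change was -1.20. That fit holds 1 cold library, so only the size of its changes is given, here and below. Annotated near-copies of Slc25a5, Gm5529 and Gm5560, had 0 reads.

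Slc25a4, adenine nucleotide translocase 1, is the form known for heart and skeletal muscle. Its level was 32.9, 44.4 and 131 CPM in cold 4, 11 and 15, against 69.8, 69.9 and 69.0 CPM in control 2, 9 and 14. The control libraries were nearly equal, while the cold libraries lay on both sides of them. The change was -0.00 ± 0.44 (95% interval -0.98 to 0.98, edgeR adjusted p = 0.999). Its cold libraries rank in the order of their muscle marker sums of 260, 3362 and 15814 CPM. The control libraries stayed level over muscle sums of 199.6, 698 and 1139 CPM, and control 2, with a lower sum than cold 4, lay above it. The part of muscle RNA in the level of Slc25a4 was not tested. Without cold 15 the change was -0.84 and was called lower (edgeR adjusted p = 0.0304). With cold 11 and 15 left out together it was -1.03, a fit in which the lone cold library is assumed to vary like the controls.

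The share of Slc25a4 in the reads of both translocases needs no scaling between libraries. It was 10.8, 15.1 and 30.2% in cold 4, 11 and 15, against 8.75, 12.2 and 8.89% in control 2, 9 and 14. Cold 4 lay within the control range and cold 15 far above it. The difference of 8.74 percentage points did not pass the test (exact two-sided permutation p = 0.2, smallest possible 0.1). It was 2.97 points without cold 15 and 0.816 points without cold 11 and 15.

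Slc25a3 carries phosphate, and copper, into the matrix. Its level was 327, 325 and 321 CPM in cold 4, 11 and 15, against 404, 372 and 399 CPM in control 2, 9 and 14. The groups did not overlap, but the change of -0.27 ± 0.17 was not called (95% interval -0.65 to 0.10, edgeR adjusted p = 0.241). Slc25a3 has a pair of alternative exons, 3A and 3B. In humans exon 3A is the one used in heart and skeletal muscle and exon 3B the one used widely. Both are shown because their reads part the libraries. They lie on the minus strand of chromosome 10 in GRCm38, exon 3A at chr10:91122207-91122331 with 125 bases and exon 3B at chr10:91121922-91122043 with 122 bases. The sequences are from the GENCODE M21 transcripts, all in lower case.
Slc25a3 exon 3A: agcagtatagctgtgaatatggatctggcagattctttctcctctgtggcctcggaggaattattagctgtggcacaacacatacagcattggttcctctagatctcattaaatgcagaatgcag
Slc25a3 exon 3B: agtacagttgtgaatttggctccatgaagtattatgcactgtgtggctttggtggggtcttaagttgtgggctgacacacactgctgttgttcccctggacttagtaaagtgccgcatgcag

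The exons match at 80 of 126 aligned positions, or 63.5%. Reads on transcripts with exon 3A made up 1.78, 2.27 and 7.39% of the reads with 1 of the exons in cold 4, 11 and 15, against 3.25, 3.61 and 3.33% in control 2, 9 and 14. These shares rest on 17, 22 and 70 reads in cold and 24, 13 and 22 reads in control libraries. Of those reads, 8, 9 and 29 in cold and 15, 9 and 11 in control libraries fell on Slc25a3-202, annotated as a nonsense-mediated decay transcript. The rest fell on the protein-coding Slc25a3-206. Cold 15 was thus high and cold 4 and 11 low, as for Slc25a4, and the part of muscle RNA was again not tested.

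**Figure D2:**
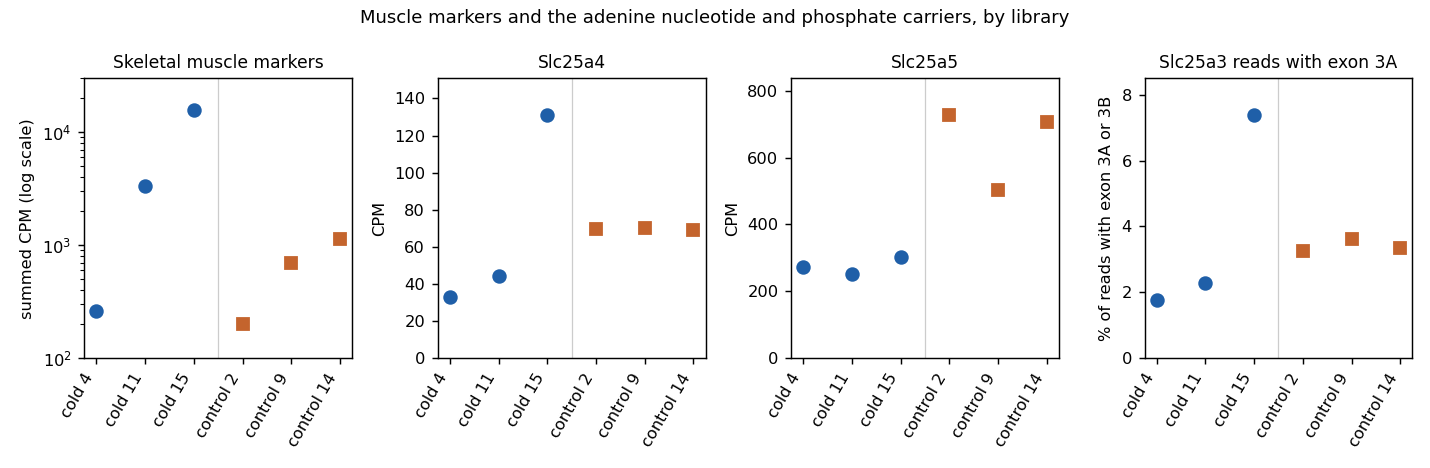
Summed CPM of 13 skeletal muscle markers (log axis), CPM of Slc25a4 and of Slc25a5, and the percentage of Slc25a3 reads with exon 3A, each point 1 library, cold as circles and control as squares. Cold 15 has the highest muscle sum (15814 CPM), the highest Slc25a4 level (131 CPM) and the highest exon 3A share (7.39%), while Slc25a5 is low in all 3 cold libraries.

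Most reads of Slc25a3 fell on transcripts Slc25a3-201 and Slc25a3-203, which share their coding sequence. In the annotation Slc25a3-203 keeps the 209-base intron that Slc25a3-201 removes ahead of the start codon, and it is shorter at both ends. Slc25a3-201 stood at 125, 134 and 117 CPM in cold 4, 11 and 15, against 201, 195 and 208 CPM in control 2, 9 and 14, and was called lower (-0.68 ± 0.19, edgeR adjusted p = 0.0161, with 32.7% of all 2787 tested transcripts called). Slc25a3-203 stood at 193, 183 and 168 CPM in cold, against 187, 165 and 174 CPM in control libraries, and overlapped (0.05 ± 0.19, edgeR adjusted p = 0.864). The share of Slc25a3-203 in the reads of both was 60.7, 57.7 and 58.8% in cold 4, 11 and 15, against 48.3, 45.8 and 45.5% in control 2, 9 and 14. This share, chosen after its values were seen, was 12.6 points higher in cold (exact two-sided permutation p = 0.1, the smallest possible). Transcript usage was tested with edgeR over 539 genes, of which 1.67% were called. Slc25a3 was not among them (edgeR diffSpliceDGE, adjusted p = 1.00). Of the 5 carriers that could be tested for usage 0 were called, and 0 had an unadjusted p under 0.05. The call of Slc25a3-201 was lost without cold 4 (-0.68, edgeR adjusted p = 0.0668), on flow cell 1 alone (-0.57, edgeR adjusted p = 0.0529) and with no count filter (-0.57, edgeR adjusted p = 0.230).

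**Figure D3:**
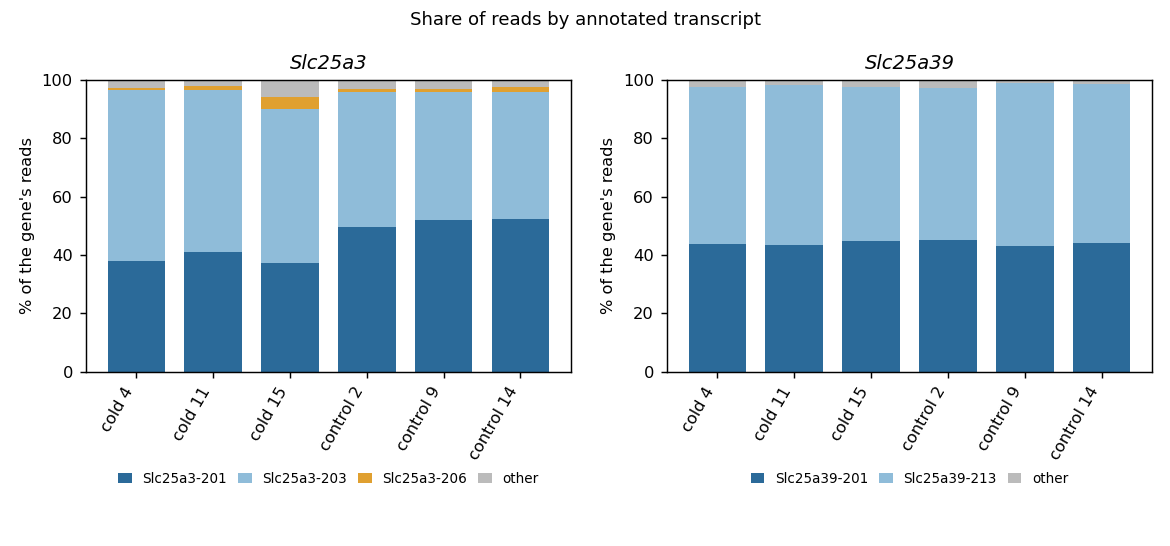
Percentage of the reads of Slc25a3 (left) and Slc25a39 (right) by annotated transcript, stacked to 100%, in the 3 cold libraries and then the 3 control libraries. Slc25a3-201 holds 37.1 to 40.9% in cold and 49.5 to 52.3% in control libraries, while Slc25a39-213 holds 52.8 to 55.1% in cold and 52.0 to 55.9% in control libraries.

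The ATP-Mg and phosphate carriers were at the edge of detection. Slc25a23 had 6 reads in cold and 6 in control libraries, and Slc25a24, Slc25a25, Slc25a41 and the germ-cell translocase Slc25a31 had 0.

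Slc25a39, which imports glutathione into mitochondria, had the highest level of the 42 carriers in the cold libraries, per kilobase (ENSMUSG00000018677, chromosome 11 from 102402985 to 102407946). It stood at 1152, 1178 and 1015 CPM in cold 4, 11 and 15, against 620.4, 638 and 604 CPM in control 2, 9 and 14. Every cold library lay above every control library, and the change was 0.84 ± 0.16 (95% interval 0.50 to 1.19, edgeR adjusted p = 0.00217). More of its reads were assigned to Slc25a39-213, annotated as a retained intron, than to the coding Slc25a39-201. Slc25a39-213 keeps an intron of 77 bases within the coding region at chr11:102403714-102403790, minus strand, GRCm38. The intron is shown because its retention divides the reads of this gene, with the splice site letters at both ends in capitals.
Slc25a39 intron: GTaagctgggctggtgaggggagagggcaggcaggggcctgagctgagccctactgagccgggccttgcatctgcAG

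Slc25a39-213 held 54.1, 55.1 and 52.8% of the gene's reads in cold 4, 11 and 15, against 52.0, 55.9 and 54.4% in control 2, 9 and 14. The shares overlapped and their means were nearly equal, at 54.0 ± 1.16% in cold and 54.1 ± 1.93% in control libraries (SD, n = 3 each). Both transcripts rose with the gene, Slc25a39-201 by 0.83 ± 0.17 and Slc25a39-213 by 0.84 ± 0.18 (edgeR adjusted p = 0.00339 and 0.00346). How a read fitting several transcripts was assigned is not stated by the labels. Slc25a40, the near relative of Slc25a39, had 0 reads. Of the mitoferrins, which carry iron, Slc25a28 had 0 reads and the erythroid form Slc25a37 had 1, in control 14.

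Of the 8 listed carriers of cofactors and of pyrimidine nucleotides, 4 were tested and 3 were called higher, beside 18.1% of all tested genes. Among these 3, Slc25a42 passed the filter through the cold libraries alone. Slc25a33, a pyrimidine nucleotide carrier (ENSMUSG00000028982, chromosome 4 from 149744036 to 149774277), stood at 77.5, 75.8 and 76.8 CPM in cold 4, 11 and 15, against 31.4, 18.5 and 34.2 CPM in control 2, 9 and 14. The cold libraries were nearly equal and all above the controls (1.43 ± 0.25, 95% interval 0.87 to 1.98, edgeR adjusted p = 0.00164). All its reads fell on 1 transcript, and its partner in that substrate, Slc25a36, had 0 reads. Exons of Slc25a33 overlap those of Gm13068 on the opposite strand, which had 0 reads.

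Slc25a51, the mitochondrial NAD carrier (ENSMUSG00000045973, chromosome 4 from 45395923 to 45408766), stood at 51.7, 63.9 and 85.3 CPM in cold 4, 11 and 15, against 30.8, 39.0 and 42.0 CPM in control 2, 9 and 14. The groups did not overlap, and the change was 0.85 ± 0.26 (95% interval 0.29 to 1.41, edgeR adjusted p = 0.0260). The call was lost without cold 11 (edgeR adjusted p = 0.0567), cold 15 (0.0913), control 2 (0.0613) or control 9 (0.0628), with changes of 0.64 to 0.89. The change was 0.52 without both cold 11 and 15. Within each group its libraries rank as their muscle marker sums of 260, 3362 and 15814 CPM in cold 4, 11 and 15, and 199.6, 698 and 1139 CPM in control 2, 9 and 14, and the part of muscle RNA was not tested. Its transcripts Slc25a51-201 and Slc25a51-202 begin 5 bases apart in the annotation and held 39.5 ± 2.37% and 60.2 ± 2.24% of the reads in cold libraries.

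Slc25a42, which brings in coenzyme A (ENSMUSG00000002346, chromosome 8 from 70184340 to 70212305), had 15, 17 and 15 reads in cold 4, 11 and 15, against 1, 1 and 0 in control 2, 9 and 14. Pooled by group, 47 reads in cold and 2 in control libraries gave a ratio, scaled to depth, of 12.2 (95% exact counting interval 3.20 to 104). Slc25a42 passed the count filter through the cold libraries alone and so had to differ, and its call as higher (edgeR adjusted p = 0.00281) is no support for a rise. With each library thinned to 1014812 reads it was not tested. Slc25a26, which imports S-adenosylmethionine, had 43 reads in cold and 13 in control libraries and missed the filter. Slc25a16 had 4 and 1 reads, and the folate carrier Slc25a32 had 3 and 1.

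Of the 8 carriers listed under amino acids, a list that includes Slc25a48, only Slc25a22, a glutamate carrier, was tested. It stood at 14.4, 15.6 and 18.1 CPM in cold 4, 11 and 15, against 5.95, 11.3 and 12.6 CPM in control 2, 9 and 14. The groups did not overlap, but the change of 0.72 ± 0.31 was not called (95% interval 0.03 to 1.41, edgeR adjusted p = 0.103). Within each group the libraries rank for Slc25a22 as for the muscle marker sums. Those sums were 260, 3362 and 15814 CPM in cold 4, 11 and 15, against 199.6, 698 and 1139 CPM in control 2, 9 and 14. The change of Slc25a22 was 0.61 without both cold 11 and 15, and the part of muscle RNA was not tested. Slc25a45 had 12 reads in cold and 0 in control libraries, a ratio of 2.08 when 3 reads are allowed over the control group. That ratio takes the cold count as exact, and with no count filter Slc25a45 was not called (edgeR adjusted p = 0.0773). The glycine carrier Slc25a38 had 3 reads in cold and 2 in control libraries, Slc25a48 had 2 and 0, and the ornithine carrier Slc25a15 had 1 and 0. Slc25a2, Slc25a18 and Slc25a29 had 0. The dicarboxylate carrier Slc25a10 had 13 reads in cold and 3 in control libraries, and the oxodicarboxylate carrier Slc25a21 had 0.

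Ucp2, a relative of Ucp1 found in many tissues and in macrophages (ENSMUSG00000033685, chromosome 7 from 100493337 to 100502020), stood at 22.8, 26.1 and 42.5 CPM in cold 4, 11 and 15, against 10.8, 6.17 and 19.8 CPM in control 2, 9 and 14. The lowest cold library lay above the highest control library (1.25 ± 0.38, 95% interval 0.41 to 2.10, edgeR adjusted p = 0.0277). Cold 15 was the highest for Ucp2 and also for the macrophage markers. Their sums were 60.1, 55.3 and 124 CPM in cold 4, 11 and 15, against 75.2, 90.4 and 57.6 CPM in control 2, 9 and 14. C1qa made up most of each sum. Among the control libraries the order was reversed. Control 9 had the highest macrophage sum and the lowest Ucp2 level, and control 14 the lowest sum and the highest Ucp2 level. The cold libraries also rank for Ucp2 as for the muscle marker sums of 260, 3362 and 15814 CPM. The control libraries, with muscle sums of 199.6, 698 and 1139 CPM in control 2, 9 and 14, did not rank alike. The part of macrophage or muscle RNA in the change of Ucp2 was not tested. Of the 11 macrophage markers 7 had reads, and Adgre1, Csf1r, Cd68 and Mrc1 were at 0. The call of Ucp2 was lost without cold 15 (0.94, edgeR adjusted p = 0.0856), control 2 (1.13, edgeR adjusted p = 0.0955) or control 9 (0.97, edgeR adjusted p = 0.0896). It was also lost at equal depth (1.11, edgeR adjusted p = 0.0589). The change was 0.89 without both cold 11 and 15. All Ucp2 reads fell on Ucp2-202, whose last exon overlaps Dnajb13, a gene on the opposite strand with 0 reads.

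Ucp3, the form of muscle and brown fat, had 5, 4 and 5 reads in cold 4, 11 and 15, against 2, 0 and 3 in control 2, 9 and 14, and was not tested. The pooled ratio was 1.45 (95% exact counting interval 0.495 to 5.16), an interval that holds no change and leaves the direction undetermined at this depth. Of the other carriers near the uncoupling proteins in sequence, Slc25a27 had 1 read, in control 14, and Slc25a14 and Slc25a30 had 0.

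Of the 7 listed carriers without a settled substrate or of other function, 2 were tested. Slc25a34 (ENSMUSG00000040740, chromosome 4 from 141618824 to 141623821) had 21, 39 and 20 reads in cold 4, 11 and 15, against 0 in each control library. With 3 reads allowed over the control group and the cold count taken as exact, it was 13.8-fold higher in cold. It passed the filter through the cold libraries alone and so had to differ, and its call as higher (edgeR adjusted p = 0.00106) is no support for a rise. With each library thinned to 1014812 reads it was not tested. Slc25a35, its closest relative in the family (ENSMUSG00000018740, chromosome 11 from 68968131 to 68974365), was lower in cold. It stood at 49.3, 59.6 and 46.8 CPM in cold 4, 11 and 15, against 111, 132 and 142 CPM in control 2, 9 and 14, without overlap (-1.30 ± 0.21, 95% interval -1.77 to -0.83, edgeR adjusted p = 0.000995). Its transcript Slc25a35-202 held 91.6 ± 3.32% of the reads in cold and 91.2 ± 2.61% in control libraries (SD, n = 3 each). Exons of Slc25a35 overlap those of Rangrf on the opposite strand, which had 0 reads. Slc25a46, an outer membrane protein of mitochondrial division, had 36 reads in cold and 9 in control libraries, and Slc25a43, Slc25a47, Slc25a53 and Slc25a54 had 0.

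**Figure D4:**
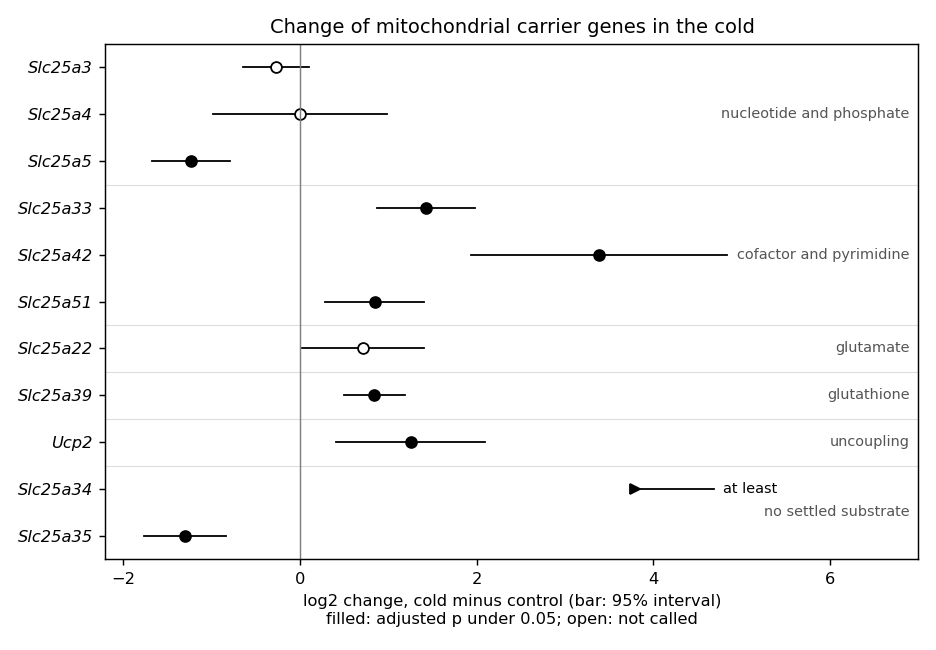
Log2 change, cold minus control, of 11 tested carriers with its 95% interval, grouped by substrate, filled where the edgeR adjusted p was under 0.05 and open where it was not. Slc25a5 and Slc25a35 lie below 0 (-1.23 and -1.30), while the fitted value of Slc25a42 (3.39) rests on 2 control reads. Slc25a34, without control reads, is drawn as a bound at 13.8-fold, which allows 3 control reads and takes the cold count as exact.

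Promoter windows were searched for motifs of factors known in brown fat and mitochondrial biogenesis, and those of 3 carriers called higher are shown. Of these, Slc25a34 passed the filter through the cold libraries alone, so its call is no support for a rise. The windows of Slc25a39 and Slc25a42, also called higher, held no match and are not shown. RefSeq windows (GRCm38.p6) of 250 bases before and 50 after the start matched 9 of the 12 tested carriers, with 11 windows in all. The motifs searched on both strands, in letters, were the cyclic AMP response element TGACGTCA, the ERR element TCAAGGTCA, the NRF1 site, the E-box CACGTG, the sterol element TCACNCCAC and the PPAR element. They occur in 1.79, 0.423, 0.971, 7.15, 1.24 and 0.0396% of 32851 such windows. Matches, in capitals below, were an E-box in Slc25a33 and a sterol element in Ucp2, and none of these letters was found in the windows of the other 7 carriers. Slc25a33 is at chr4:149774218-149774517 and Slc25a34 at chr4:141623785-141624084, both on the minus strand, and Ucp2 is at chr7:100493108-100493407 on the plus strand.
Slc25a33 promoter: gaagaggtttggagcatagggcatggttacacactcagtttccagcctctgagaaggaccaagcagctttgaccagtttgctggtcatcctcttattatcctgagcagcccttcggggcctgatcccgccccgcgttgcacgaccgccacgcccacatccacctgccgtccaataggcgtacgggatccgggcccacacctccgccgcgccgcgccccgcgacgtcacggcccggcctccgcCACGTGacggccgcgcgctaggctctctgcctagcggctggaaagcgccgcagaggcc
Ucp2 promoter: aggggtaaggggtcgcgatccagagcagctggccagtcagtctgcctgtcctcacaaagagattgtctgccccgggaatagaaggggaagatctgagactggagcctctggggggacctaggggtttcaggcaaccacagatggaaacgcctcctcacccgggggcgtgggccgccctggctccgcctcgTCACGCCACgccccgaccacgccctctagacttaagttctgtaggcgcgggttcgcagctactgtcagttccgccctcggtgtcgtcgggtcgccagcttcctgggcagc
Slc25a34 promoter: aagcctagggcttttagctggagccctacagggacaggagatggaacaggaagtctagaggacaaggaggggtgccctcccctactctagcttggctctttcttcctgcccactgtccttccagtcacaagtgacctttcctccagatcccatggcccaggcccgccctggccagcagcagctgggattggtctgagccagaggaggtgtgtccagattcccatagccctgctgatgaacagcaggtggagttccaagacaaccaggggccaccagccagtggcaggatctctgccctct

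The 17 carriers without reads were Slc25a2, Slc25a14, Slc25a18, Slc25a21, Slc25a24, Slc25a25, Slc25a28, Slc25a29, Slc25a30, Slc25a31, Slc25a36, Slc25a40, Slc25a41, Slc25a43, Slc25a47, Slc25a53 and Slc25a54. A count of 0 in 13457246 reads allows up to 0.223 CPM on unscaled totals, for counting error only. A further 13 had 1 to 56 reads and missed the filter.

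Genes that act beside the carriers moved in both directions. Of 10 carriers outside the set, 7 were tested, 2 rose and 1 fell (median 0.04), where 33.2% of all tested genes were called, 18.1% higher and 15.1% lower, with a median of 0.04. The peroxisomal carrier Slc25a17 rose (699 ± 133 CPM in cold and 147 ± 18.2 CPM in control, 2.25 ± 0.21, edgeR adjusted p = 3.9e-05), and the citrate carrier Slc25a1 fell (45.9 ± 15.7 CPM in cold and 669 ± 219 CPM in control, -3.86 ± 0.33, edgeR adjusted p = 2.1e-05). Mtch2, an outer membrane insertase, rose by 0.54 ± 0.19 (edgeR adjusted p = 0.0433). Its call was lost without cold 4, cold 11, control 9 or control 14, on flow cell 1 alone and with DESeq2 size factors. Its changes there were 0.45 to 0.55, and 0.61 without both cold 11 and 15.

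Of 14 listed genes of the import route that inserts carriers into the inner membrane, 10 were tested, 2 rose and 1 fell (median 0.45), a share of calls near the 33.2% of all tested genes. Timm22, the insertion pore, rose (57.3 ± 2.07 CPM in cold and 27.0 ± 5.44 CPM in control, 1.07 ± 0.23, edgeR adjusted p = 0.00507). Its change was 1.10 without both cold 11 and 15. Timm10, an intermembrane space chaperone of Timm22, rose by 0.85 ± 0.26 (edgeR adjusted p = 0.0274). That call was lost without any 1 library other than control 2, with changes of 0.59 to 0.87. The change of Timm10 was 0.89 without both cold 11 and 15. Tomm20, an outer membrane receptor, fell (46.1 ± 9.47 CPM in cold and 118 ± 40.1 CPM in control, -1.36 ± 0.28, edgeR adjusted p = 0.00384).

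Among 26 other mitochondrial transporters and channels, 11 were tested, 2 rose and 3 fell (median 0.38), beside 33.2% called among all tested genes. Mpc1 and Mpc2, the mitochondrial pyruvate carrier, fell by 1.04 ± 0.14 and 0.71 ± 0.14 (edgeR adjusted p = 0.00040 and 0.00368). The change of Mpc2 was -0.65 without both cold 11 and 15. Letm1, an ion exchanger of the inner membrane, rose (109 ± 7.63 CPM in cold and 37.4 ± 15.4 CPM in control, 1.55 ± 0.29, edgeR adjusted p = 0.00236). Within each group the libraries rank for Letm1 as for the muscle marker sums. Its change was 1.49 without both cold 11 and 15, and the part of muscle RNA was not tested.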

How the data were processed

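The files deposited by the authors hold raw read counts per Ensembl transcript, 1 file for each library and flow cell. Per the submitters' processing notes minimap2 and GRCm38 were used; versions are not given in the sources used here. Per the labels, RNA was poly(A)-selected in 2 rounds, amplified over 27 PCR cycles with a cap-selecting kit, and each library was run on 2 flow cells. The extraction text names eWAT while the tissue label gives interscapular brown fat, which was used. No molecular identifiers are named, so intervals and floors cover counting error only.

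Flow cells were summed and 14671 of 14693 transcript identifiers were joined, without version, to GENCODE M21 genes. Flow cells of 1 library differed by little more than sampling noise (chi-square per degree of freedom 1.02 to 1.10), libraries of a group by far more (12.4 to 41.7). Tests used edgeR 4.0.16 for genes and for transcripts (filterByExpr at a minimum count of 10, TMM, robust quasi-likelihood F test) and transcript usage with diffSpliceDGE. Each SE was obtained from the log2 change and the F statistic. The fit was tested on simulated data. Near-copies were sought with blastn 2.17.0 at 95% identity over at least 200 bases, and DESeq2 1.42.0 was run as an alternative. Members and lists were chosen with earlier results of these data known. The rule named all tested members, called ones by library, and of other lists the 3 smallest p values; 1 tested member, included in the counts, is not reported here. Beyond mouse numbers the labels describe no separate litters or days, and p values measure the spread between these 6 libraries.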

Additional observations from a re-analysis of the deposited data

How the results depend on the processing

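No paired analysis was possible because no mouse number occurs in both groups. Slc25a5, Slc25a33, Slc25a35 and Slc25a39 were called in the same direction under all 15 alternatives, with log2 changes of -1.42 to -1.11, 1.19 to 1.56, -1.41 to -1.09 and 0.78 to 0.97. Slc25a34 and Slc25a42 could be tested under 12 and 7 of them, and, since their filter rests on the cold libraries, their calls there say nothing of stability. Of the 8 called carriers 5 were called with each library thinned to 1014812 reads and 5 without both cold 11 and cold 15 (a setting added after the data had been seen), under which 321 of all genes were called in place of 695. With 1 library left out, 6 to 8 carriers were called. Without cold 15 only 5 of those called were among the 8, as Slc25a4 was newly called lower. Carrier transcripts called were 6 on flow cell 1 alone, in place of 10. On the per kilobase scale 8 of 12 carriers kept their rank. The change of Slc25a4, near 0, turned to 0.072 with library totals alone, 0.13 with no count filter, 0.042 when thinned, 0.042 on flow cell 2 alone and 0.0035 with protein-coding transcripts alone, and ran from -0.84 to 0.31 with 1 library left out. That of transcript Slc25a3-203 ran from -0.0028 to 0.11 with 1 library left out. The median change of all tested genes was 0.04, against 0.11 with library totals, 0.16 with no filter and -0.01 with DESeq2 size factors. Genes called higher and lower were 378 and 317, against 425 and 276 with library totals, 449 and 259 with no filter and 354 and 354 with DESeq2 size factors. The cause of these shifts was not tested. With no count filter all 25 carriers with reads were tested and the same 8 were called.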
